A study of Mus musculus with 18 samples.

Results

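Spleens of mice given AOS together with a high fat diet and streptozotocin (HS_AOS) were compared with spleens of mice given the diet and streptozotocin alone (HS). The comparison holds 3 libraries a group, 6 of the 18 RNA sequencing libraries of the series, which form 6 groups of 3. It covers the 12969 of 19326 listed entries that reached at least 1 FPKM (fragments per transcript length, scaled to the size of the library) in at least 3 of the 18 libraries. The groups were formed from the labels and not from measured values. All mice were of the ICR strain, an outbred stock whose animals are not genetically identical, and were 10 weeks old. HS_AOS mice received the high fat diet, streptozotocin (STZ) and AOS at 10 mg/kg. HS mice received the same diet and STZ and no AOS. The groups AOS (AOS at 10 mg/kg) and control (untreated), neither with diet nor STZ, served to ask whether AOS was accompanied by the same differences without them. The other 2 groups had the diet and STZ with faecal microbiota from AOS-treated donors (HS_AOSFMT) or from control donors (HS_conFMT). The labels neither spell out AOS nor give its route. Nothing in them states that each library is a different animal, and every p-value below is a measure of the variation among libraries, which may be technical.

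STZ is taken up by the insulin-producing beta cells of the pancreas and kills them, and with a high fat diet it is used to model diabetes in rodents. The spleen filters blood in its red pulp, where macrophages take up old red cells, and mounts immune responses in its white pulp of B and T cells. Plasma cells, which arise from B cells, secrete antibody and depend on a large folding capacity in the endoplasmic reticulum (ER). Chaperones of the cytosol are induced by heat shock factor 1 when proteins unfold, chaperones of the ER are induced through ATF6, XBP1 and PERK, and the circadian clock runs in immune cells as in other tissues.

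Before the values, promoter stretches are shown for 6 genes of the 3 gene groups described below, because each holds, as letters, a motif known for its group. They are taken from RefSeq (GRCm38.p6), on the gene's own strand, and capitals mark the motif matches. Hspe1 is at chr1:55088029-55088106 (plus strand) and carries 2 overlapping heat shock elements, spelled TTCNNGAANNTTC, the first at -89 from the RefSeq start. The ER stress response element, spelled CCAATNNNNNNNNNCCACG, is marked in Hsp90b1 (chr10:86705503-86705686, minus strand, 2 matches, at -212 and -107), Hspa5 (chr2:34771995-34772073, plus strand, at -65), Creld2 (chr15:88819490-88819568, plus strand, at -126, in reverse orientation) and Pdia6 (chr12:17266461-17266539, plus strand, at -98). In Tef (chr15:81802516-81802581, plus strand) the E-box CACGTG, the letters read by CLOCK and BMAL1, stands at -127. All these distances count from RefSeq starts. Gene positions given further below are from GENCODE, whose starts can differ. By GENCODE, the Hspa5 and Tef stretches lie inside the gene.
Hspe1: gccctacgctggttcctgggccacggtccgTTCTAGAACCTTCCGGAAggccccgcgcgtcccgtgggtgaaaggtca
Hsp90b1: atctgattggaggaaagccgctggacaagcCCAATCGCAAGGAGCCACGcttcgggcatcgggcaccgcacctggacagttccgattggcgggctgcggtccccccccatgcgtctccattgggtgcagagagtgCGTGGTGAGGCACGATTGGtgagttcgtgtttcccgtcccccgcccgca
Hspa5: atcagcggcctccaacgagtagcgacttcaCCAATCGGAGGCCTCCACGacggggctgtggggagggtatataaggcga
Creld2: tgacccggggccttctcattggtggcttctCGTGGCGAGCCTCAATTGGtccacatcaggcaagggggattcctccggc
Pdia6: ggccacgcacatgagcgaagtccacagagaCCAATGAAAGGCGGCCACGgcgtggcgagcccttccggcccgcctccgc
Tef: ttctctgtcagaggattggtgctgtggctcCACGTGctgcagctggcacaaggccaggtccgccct
Both strands were searched over the 250 bases before the start. In that window the heat shock element was found in 3 of the 31 heat shock genes with a promoter in the table (Dnajb6, Hspe1 and Hspd1) and in 153 of all 32851 promoters (0.466%). The ER element was found in 9 of 31 ER folding genes (Hspa5, Hsp90b1, Calr, Canx, Dnajc3, Creld2, Pdia6, Syvn1 and Derl3) and in 37 of all promoters (0.113%). The E-box was found in 5 of 18 clock genes (Per1, Cry1, Bhlhe41, Ciart and Tef) and in 1978 of all promoters (6.02%). A listed gene was counted once if any of its promoters matched, whereas the share of all promoters counts each promoter, and a gene can have several. The measures are therefore not alike. Hspe1 and Hspd1 matched at the same site. A match is a description of the letters and not evidence that a factor binds there.

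The libraries carried the transcripts of spleen. The T cell receptor component Cd3e was listed at 35, 31.2 and 27.2 FPKM in HS_AOS, against 30.4, 38 and 31.1 FPKM in HS, and the red pulp macrophage regulator Spic at 43.4, 47.9 and 66.8 FPKM in HS_AOS, against 36.3, 44 and 55.2 FPKM in HS. These ranges overlapped. The summed FPKM of the 6 libraries ran from 718224 to 770999, and 12297 to 12532 genes reached 1 FPKM in each. Sequencing depth is unknown, since no counts were used, so low values stand without a counting error. The share of haemoglobin genes was 21.5% to 33.1% in HS_AOS and 26.8% to 29.1% in HS. Transcripts of pancreatic acinar enzymes, which belong to another organ, took 3.63%, 0.410% and 0.0717% in HS_AOS 1, 2 and 3, against 3.27%, 0.365% and 0.527% in HS 1, 2 and 3. HS_AOS 1 and HS 1 therefore stood apart in both groups, and they also had the lowest scores of their groups on the first principal component, -23.6 and -32.7, where the other libraries of these groups scored -3.56 to -14.1.

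No single gene differed between HS_AOS and HS past the threshold. Cytosolic and mitochondrial chaperones of the heat shock response stood lower in HS_AOS than in 2 of the 3 HS libraries. Folding genes of the ER stood lower in HS_AOS than in HS, without overlap in 23 of 39 (2.74% of all genes), among them 12 of 12 chaperones. Output genes of the clock and the repressors Nr1d1 and Nr1d2 stood higher. In limma, a linear model that pools the estimate of spread across genes, fitted to log2(FPKM + 1) over all 18 libraries, 0 of 12969 genes (0%) had an adjusted p under 0.05 in either direction, and the smallest adjusted p was 0.390. Without adjustment 674 genes (5.20%) had p under 0.05, 503 of them higher in HS_AOS (3.88%) and 171 lower (1.32%), near the number that a threshold of 0.05 gives by itself. The heat shock, ER folding and clock lists held 40 of the 674, and 618 were in none of the gene lists described here. When limma was fitted to these 6 libraries alone with the replicate number as a block, 1 gene was called and 1105 had an unadjusted p under 0.05.

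The tilt towards higher genes depended on scaling. Over all tested genes the median log2 change was 0.04, and 8194 genes (63.2%) had a change above 0. Of the 674 genes, 74.6% were higher as the values were deposited. After median-of-ratios scaling, which moved the median to 0.00, 772 genes had an unadjusted p under 0.05, of which 435 were higher and 337 lower (56.3% higher). Counted by overlap, 1066 genes (8.22%) had all 3 HS_AOS libraries above all 3 HS libraries, and 355 (2.74%) had them all below. The median standard error of a log2 change was 0.12, and 21 genes both had an unadjusted p under 0.05 and differed by more than 2-fold on the log2(FPKM + 1) scale. Every fold change below is on this scale, which understates the change of genes with low values.

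Heat shock genes form a list of 38 members, all of which passed the filter on low values. Their median log2 change was -0.43, against 0.04 for all tested genes, and 37 of 38 stood lower in HS_AOS. An unadjusted p under 0.05 was reached by 19 members, all lower, and by 1.32% of all genes in that direction. Adjusted over all genes, limma called 0 members. The list took 0.571%, 0.555% and 0.603% of the summed FPKM in HS_AOS 1, 2 and 3, against 0.563%, 0.930% and 1.11% in HS 1, 2 and 3. The HS_AOS libraries were close to one another, HS 2 and HS 3 were high, and HS 1 lay among the HS_AOS libraries. For 34 of 38 members all HS_AOS libraries were below both HS 2 and HS 3, and for 33 of 38 HS 1 was below the highest HS_AOS library. Only 4 of 38 members (background 2.74%) separated the groups without overlap.

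Among the cytosolic chaperones, whose 8 members had a median log2 change of -0.76, the inducible HSP70 gene Hspa1a was listed at 7.53, 1.55 and 13.5 FPKM in the HS_AOS libraries, against 7.25, 30.1 and 53.2 FPKM in the HS libraries (log2 change -1.82, SE 0.79, limma adjusted p = 0.941). HS 2 and HS 3 were above every HS_AOS library and HS 1 was not. Hspa1b, a near-identical neighbour with which it may share reads, had the same log2 change of -1.82. How reads were divided between these copies is uncertain. Hsp90aa1, the stress-inducible HSP90 of the cytosol, stood at 357, 298 and 412 FPKM in the HS_AOS libraries, against 366, 746 and 838 FPKM in the HS libraries (log2 change -0.79, SE 0.28, limma adjusted p = 0.854). Its 3 HS_AOS libraries enclosed HS 1 and lay below HS 2 and HS 3. The constitutive HSP70 gene Hspa8, among the most abundant chaperone transcripts, was listed at 1050, 995 and 1185 FPKM in HS_AOS, against 1035, 1917 and 2186 FPKM in HS (log2 change -0.60). Hsph1, a nucleotide exchange factor that helps HSP70 to release its client, stood at 45.4, 32.2 and 71.9 FPKM in HS_AOS, against 49.2, 194 and 232 FPKM in HS (log2 change -1.45). For both, HS 1 lay within the HS_AOS range and HS 2 and HS 3 above it.

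Hspb1, a small heat shock protein that holds unfolded proteins in solution, was listed at 23.8, 9.97 and 14.7 FPKM in the HS_AOS libraries, against 23.1, 46.6 and 52.8 FPKM in the HS libraries (log2 change -1.28, SE 0.33, limma adjusted p = 0.65). HS 1 lay just below HS_AOS 1, and HS 2 and HS 3 were above every HS_AOS library. The J proteins and co-chaperones, 13 members with a median of -0.54, included Stip1, which hands clients between HSP70 and HSP90, at 88.9, 82.2 and 111 FPKM in HS_AOS, against 92.1, 218 and 238 FPKM in HS (log2 change -0.85). Ahsa1, an activator of the HSP90 ATPase, stood at 87.3, 81.2 and 106 FPKM in HS_AOS, against 93.1, 177 and 200.2 FPKM in HS (log2 change -0.71). Bag3, which links HSP70 to autophagy, stood at 10.7, 8.26 and 13.7 FPKM in HS_AOS, against 10.7, 22.6 and 27.1 FPKM in HS (log2 change -0.76). In each of these, HS 2 and HS 3 were about 2-fold above the HS_AOS libraries and HS 1 was within their range. Dnaja2, a constitutive J protein, was the member that did not stand lower, with a log2 change of 0.04. Hsf1, the transcription factor that induces these genes, was listed at 26.2, 30.3 and 28.4 FPKM in HS_AOS, against 26.8, 32.1 and 33.1 FPKM in HS, with overlapping groups (log2 change -0.11).

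The chaperonins held the member with the smallest p. Hspe1 (chromosome 1, 55088132 to 55091307, plus strand) encodes HSP10, the lid of the mitochondrial chaperonin, and its promoter is the one shown above with 2 heat shock elements. It was listed at 156, 155 and 181 FPKM in the HS_AOS libraries, against 198, 294 and 359.5 FPKM in the HS libraries (log2 change -0.75, SE 0.16, limma adjusted p = 0.458). All HS_AOS libraries were below all HS libraries, with HS 1 again the lowest of HS. Hspd1, which encodes the barrel of the same chaperonin, HSP60, lies on the opposite strand. By the GENCODE positions it starts 111 bases inside Hspe1, so the gene models overlap. By its RefSeq start, which differs, the same stretch lies before Hspd1 too, with matches at -144 and -139. Hspd1 stood at 103, 93.5 and 118 FPKM in the HS_AOS libraries, against 109.8, 184 and 227 FPKM in the HS libraries (log2 change -0.67, SE 0.22, limma adjusted p = 0.827), and HS 1 fell within the HS_AOS range. Cct6a, a subunit of the cytosolic chaperonin that folds actin and tubulin, was at 66.4, 63.5 and 67.8 FPKM in HS_AOS, against 70.1, 91 and 101 FPKM in HS (log2 change -0.38), without overlap.

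**Figure D1:**
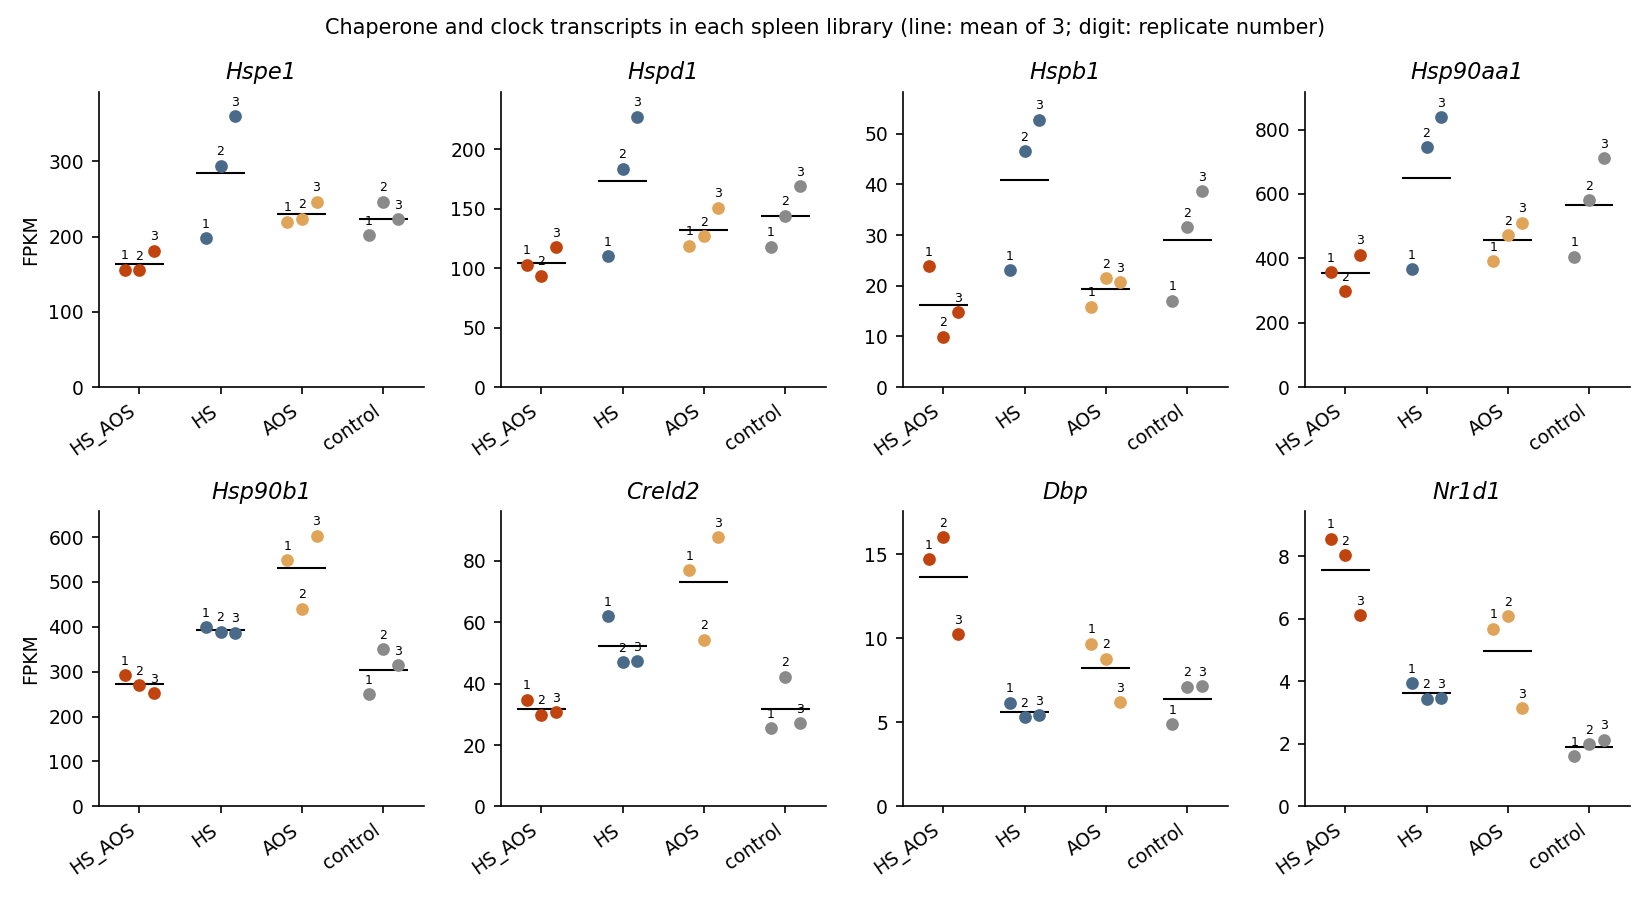
FPKM of 8 genes by library in HS_AOS, HS, AOS and control (points with replicate numbers, 3 a group, and lines for the means). For the heat shock genes Hspe1, Hspd1, Hspb1 and Hsp90aa1, HS 2 and HS 3 stood above the HS_AOS libraries and HS 1 near them, while Hsp90b1, Creld2, Dbp and Nr1d1 separated HS_AOS from all 3 HS libraries.

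Which libraries enter decided how many heat shock members passed an unadjusted p of 0.05. Lower members at that threshold numbered 2 of 38 without HS 3 (median -0.27), beside 1.03% of all genes in the same fit. There were 9 without HS 2 (1.09% of all genes), 7 without HS_AOS 2 (1.33%) and 26 without HS 1 (1.77%, list median -0.58). With HS_AOS 1 and HS 1, the libraries richest in acinar transcripts, set aside together, 25 members passed (1.50% of all genes) and the median was -0.58. Limma fitted to the 6 libraries alone gave 8 (1.59%), and 10 with the replicate block (2.51%). Without diet and STZ the list took 0.634%, 0.647% and 0.794% of the summed FPKM in AOS, against 0.464%, 0.731% and 1.00% in control, so it varied inside the control group as well. Hspb1 was at 15.9, 21.5 and 20.7 FPKM in the AOS libraries, against 17.1, 31.5 and 38.6 FPKM in the control libraries. In AOS against control the list had a median log2 change of 0.00. The interaction, which is the HS_AOS minus HS difference less the AOS minus control difference, had a median of -0.35 over the list and an unadjusted negative p under 0.05 in 4 of 38 members, against 3.70% of all genes. That count also depended on the libraries. It was 23 without HS 1 (3.87% of all genes) and 10 with the replicate block over all 18 libraries (4.30%). It was 1 without HS 2 (3.18%), without HS 3 (3.62%) or without AOS 3 (2.47%).

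Other mitochondrial folding and protease genes did not follow Hspe1 and Hspd1. Their list of 25 had a median log2 change of -0.01, with 11 members higher in HS_AOS. The mitochondrial HSP70 gene Hspa9 was at 74, 78.7 and 69.2 FPKM in HS_AOS, against 72.9, 87.6 and 92.6 FPKM in HS, and the unfoldase gene Clpx, a regulatory subunit of a matrix protease, at 14.1, 13.8 and 14 FPKM in HS_AOS, against 13, 12.6 and 12.8 FPKM in HS. Hspa9 overlapped between groups, and Clpx was slightly higher in every HS_AOS library (log2 change 0.12). The exception in the list was Mrps6, a protein of the small mitochondrial ribosomal subunit, at 18.4, 21.3 and 17.8 FPKM in the HS_AOS libraries, against 23.7, 41.4 and 37.6 FPKM in the HS libraries (log2 change -0.77, SE 0.18, limma adjusted p = 0.458). The groups did not overlap, and HS 2 and HS 3 were again the high libraries. Mrps7 of the same subunit stood at 26.1, 25 and 25.2 FPKM in HS_AOS, against 30.5, 34 and 38 FPKM in HS (log2 change -0.41), and Mrpl38 of the large subunit at 24.9, 27.3 and 28.4 FPKM in HS_AOS, against 30.6, 34.9 and 34.9 FPKM in HS (log2 change -0.31). Mrps7 and Mrpl38, which are outside the list, also separated without overlap. The 8 mitochondrial ribosome genes of the list had a median log2 change of -0.08, and Mrps6 was the only 1 of them that separated.

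ER folding genes stood lower in HS_AOS in a different pattern, with all 3 HS libraries above. Of 40 listed genes 39 passed the filter. Their median log2 change was -0.19, 36 of 39 stood lower, and in 23 of 39 (background 2.74%) the groups did not overlap. An unadjusted p under 0.05 was reached by 12 members, all lower (background 1.32%), and by 19 with the replicate block in these 6 libraries alone (2.51% of all genes in that fit), and 0 were called after adjustment. The list took 0.338%, 0.343% and 0.304% of the summed FPKM in HS_AOS 1, 2 and 3, against 0.401%, 0.383% and 0.410% in HS 1, 2 and 3. After median-of-ratios scaling 22 members had an unadjusted p under 0.05 (2.60% of all genes were lower at that threshold), and the median was -0.23. HS_AOS 3 was the lowest of the 6 libraries in 25 members and HS 1 the highest in 21.

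The 12 ER chaperones were all lower in HS_AOS without overlap (background 2.74%), with a median log2 change of -0.37. Of these, 9 had an unadjusted p under 0.05 (background 1.32%). Hsp90b1 (chromosome 10, 86690209 to 86705509, minus strand), also called GRP94, the HSP90 of the ER that folds integrins and toll-like receptors, was listed at 292, 270.5 and 252 FPKM in the HS_AOS libraries, against 399.7, 389 and 387 FPKM in the HS libraries (log2 change -0.53, SE 0.15, limma adjusted p = 0.714). The HS libraries lay within a narrow band and every HS_AOS library was well below it. Hspa5, or BiP, the HSP70 of the ER, stood at 219, 209.8 and 215 FPKM in the HS_AOS libraries, against 255, 295 and 307 FPKM in the HS libraries (log2 change -0.41, SE 0.13, limma adjusted p = 0.788). Calr, a calcium-binding lectin chaperone, was at 272, 274 and 263 FPKM in HS_AOS, against 315, 342 and 403 FPKM in HS (log2 change -0.38), and its membrane-bound relative Canx at 73.6, 72.7 and 76.4 FPKM in HS_AOS, against 80.4, 82.5 and 93.6 FPKM in HS (log2 change -0.20). In each of these the HS_AOS libraries lay close together below all HS libraries.

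Creld2, an ER stress-inducible factor with disulfide isomerase activity, had the largest difference among the chaperones, at 34.8, 29.9 and 30.7 FPKM in the HS_AOS libraries, against 62, 47 and 47.3 FPKM in the HS libraries (log2 change -0.69, SE 0.23, limma adjusted p = 0.827). Sdf2l1, a partner of BiP, was listed at 26.5, 23.2 and 21.4 FPKM in HS_AOS, against 34.7, 35.3 and 32.7 FPKM in HS (log2 change -0.52), and Manf, a secreted regulator of BiP, at 50.6, 48 and 44.6 FPKM in HS_AOS, against 66.6, 63.6 and 59.8 FPKM in HS (log2 change -0.40). HS 1 had the highest Creld2 value, and these 3 genes separated the groups without overlap. Hyou1, an exchange factor for BiP, stood at 27.1, 25.9 and 25.3 FPKM in HS_AOS, against 30.4, 34.6 and 35.5 FPKM in HS (log2 change -0.35), and the BiP cochaperone Dnajb11 at 51.4, 48.3 and 47.5 FPKM in HS_AOS, against 66.4, 57.3 and 57.4 FPKM in HS (log2 change -0.29).

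Among the 6 disulfide isomerases and oxidases 4 separated lower without overlap (background 2.74%). Pdia6, an isomerase that also attenuates the sensor IRE1, was at 87.6, 76.7 and 70.4 FPKM in the HS_AOS libraries, against 108, 99.3 and 106 FPKM in the HS libraries (log2 change -0.42, SE 0.14, limma adjusted p = 0.825). Pdia4 stood at 50.2, 59.3 and 49.3 FPKM in HS_AOS, against 66.7, 65.1 and 66.3 FPKM in HS (log2 change -0.32). The translocation genes (7) had a median of -0.09 and the degradation genes (9) of -0.17, with 2 and 3 members separated and 0 with an unadjusted p under 0.05. Derl3, a component of ER-associated degradation, was listed at 17.7, 14.1 and 15.5 FPKM in HS_AOS, against 27, 20.2 and 16.6 FPKM in HS, with HS_AOS 1 above HS 3. Of 5 sensors and transcription factors, Xbp1, which drives ER expansion and plasma cell secretion, stood at 61.5, 53.4 and 57.7 FPKM in the HS_AOS libraries, against 86, 65.6 and 66.3 FPKM in the HS libraries (log2 change -0.32, SE 0.14, limma adjusted p = 0.941), without overlap.

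Plasma cell transcripts stood lower beside these genes, mostly against HS 1. The plasma cell list took 0.170%, 0.145% and 0.146% of the summed FPKM in HS_AOS 1, 2 and 3, against 0.258%, 0.179% and 0.161% in HS 1, 2 and 3. Its 13 members had a median log2 change of -0.27, and of -0.07 without HS 1. The antibody joining chain gene Jchain stood at 681, 476 and 652 FPKM in HS_AOS, against 1117, 753 and 639 FPKM in HS, its cofactor of assembly Mzb1 at 267, 262 and 185 FPKM in HS_AOS, against 424, 291 and 215 FPKM in HS, and the surface proteoglycan Sdc1 at 5.47, 5.04 and 5.06 FPKM in HS_AOS, against 9.07, 5.62 and 5.26 FPKM in HS. HS 1 was the highest library for all 3, and the groups overlapped for each. Of the ER list 3 members are also in the plasma cell list. The other 36 had a median of -0.17, and 21 of them separated lower without overlap (background 2.74%). The part of plasma cells in the ER difference was not tested, and in whole spleen fewer cells of a type and less RNA per cell cannot be told apart.

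The same ER genes stood on the other side in AOS against control. There 38 of 39 members were higher in AOS, with a median log2 change of 0.35, 29 had an unadjusted p under 0.05 in that direction (background 8.08%), and 26 separated without overlap (background 11.6%). The list took 0.478%, 0.407% and 0.536% of the summed FPKM in AOS, against 0.280%, 0.373% and 0.381% in control. Hsp90b1 was at 549, 440.3 and 602 FPKM in the AOS libraries, against 249.6, 349.7 and 314 FPKM in the control libraries (log2 change 0.80), and Creld2 at 77, 54.3 and 87.6 FPKM in the AOS libraries, against 25.5, 42.3 and 27.1 FPKM in the control libraries (log2 change 1.19). Control 1 was low for both, and every AOS library was above every control library. In 16 of 39 members all HS_AOS libraries were below all HS libraries and all AOS libraries above all control libraries, as in 58 of 12969 genes (0.447%). The reverse pattern was seen in 33 genes (0.254%) and in 0 ER members. Leaving out AOS 3 lowered the 29 to 19 (4.56% of all genes in that fit), and leaving out control 1 lowered it to 20 (5.54%).

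The interaction tests that difference between the 2 AOS effects directly. It was negative with an unadjusted p under 0.05 in 28 of 39 ER members (background 3.70%), and in 25 of the 36 outside the plasma cell list, and the median over the list was -0.54. Leaving out 1 AOS or control library at a time gave 27 to 31 members, beside 2.47% to 4.70% of all genes. limma called 0 members after adjustment with all libraries. It called Hsp90b1 and Creld2 without AOS 2, and these with Derl3 and Manf without control 2. Hsp90b1 came nearest, with an interaction of -1.33 (SE 0.22, limma adjusted p = 0.123). The adjusted p was 0.0347 after median-of-ratios scaling. Creld2 had -1.88 (SE 0.32, limma adjusted p = 0.15), Pdia6 -1.02 (SE 0.19, limma adjusted p = 0.237), Dnajb11 -0.81 (SE 0.16, limma adjusted p = 0.237) and Xbp1 -0.97 (SE 0.20, limma adjusted p = 0.237). Rpn1, a subunit of the oligosaccharyltransferase that glycosylates proteins in the ER, had -0.61 (SE 0.13, limma adjusted p = 0.237), and Lman1, a cargo receptor for export from the ER, -0.84 (SE 0.16, limma adjusted p = 0.237). Neither was listed with the ER folding genes, and they were among the 10 genes with the smallest interaction p. Epcam, an epithelial adhesion gene at 3.21, 2.85 and 2.16 FPKM in HS_AOS, against 4.85, 2.63 and 3 FPKM in HS, was another, with -1.35 (SE 0.27, limma adjusted p = 0.237). The plasma cell list took 0.267%, 0.208% and 0.270% in AOS, against 0.0904%, 0.180% and 0.117% in control, and 10 of its 13 members had a negative interaction with an unadjusted p under 0.05. The part of plasma cells in the interaction was not tested. The count without shared members does not test it, since plasma cells can also carry the other ER transcripts.

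**Figure D2:**
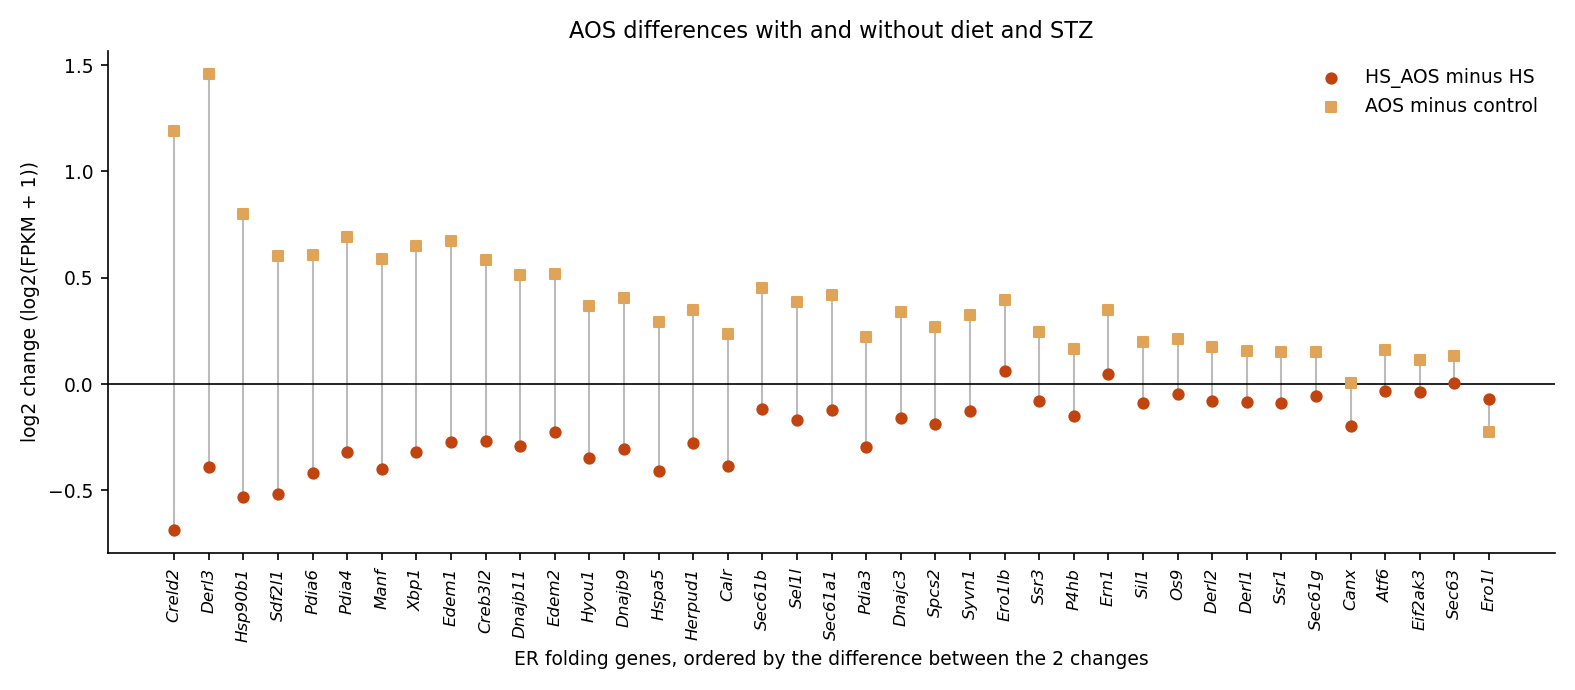
Log2 change of each of 39 ER folding genes in HS_AOS minus HS (circles) and in AOS minus control (squares), on the log2(FPKM + 1) scale, joined by a line and ordered by the distance between them. Circles lie below 0 for 36 genes and squares above 0 for 38, and Creld2 and Derl3 have the longest lines.

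Genes of the integrated stress response, which PERK and other kinases switch on when translation is slowed, had log2 changes below 0 in 18 of 18, with a median of -0.13. Of these, 2 had an unadjusted p under 0.05 (background 1.32%) and 3 separated without overlap (background 2.74%). Chac1, an enzyme that degrades glutathione, was at 0.77, 0.59 and 0.43 FPKM in HS_AOS, against 1.46, 1.25 and 1.25 FPKM in HS (log2 change -0.54). Ddit3, or CHOP, a transcription factor of prolonged stress, was at 27.6, 25.1 and 29.6 FPKM in HS_AOS, against 32.6, 37.2 and 29.8 FPKM in HS (log2 change -0.26), and the pseudokinase gene Trib3 at 0.82, 0.66 and 0.89 FPKM in HS_AOS, against 1.38, 1.75 and 1.29 FPKM in HS (log2 change -0.46). The 3 genes were listed lower in each HS_AOS library than in any HS library, by a small margin for Ddit3. Slc3a2, the heavy chain of amino acid transporters, which is outside the list, stood at 83.6, 81.6 and 90.9 FPKM in HS_AOS, against 104, 100 and 102 FPKM in HS (log2 change -0.26, SE 0.077, limma adjusted p = 0.714).

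**Figure D3:**
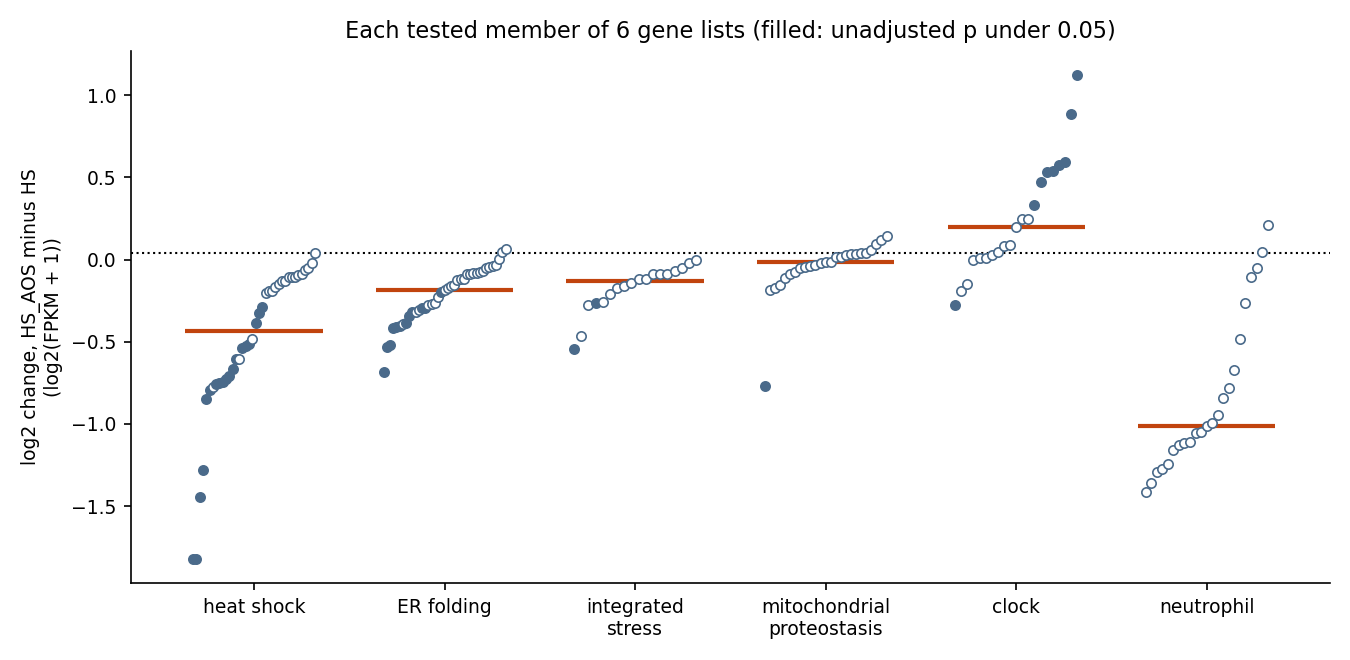
Log2 change, HS_AOS minus HS, of each tested member of 6 gene lists on the log2(FPKM + 1) scale. Points are filled where the unadjusted limma p is under 0.05, red lines are list medians, and the dotted line is the median of all tested genes (0.04); heat shock, ER folding, integrated stress and neutrophil medians lie below it and the clock median, 0.20, above.

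Clock genes stood higher in HS_AOS at the output end. The list also holds Rbm3 and Cirbp, which are temperature-responsive and not parts of the clock. Of 22 listed, 21 passed the filter, 17 stood higher, where 63.2% of all genes did, and the median log2 change was 0.20. An unadjusted p under 0.05 was reached by 8 higher members (background 3.88%) and 1 lower member (background 1.32%), 9 separated higher without overlap (background 8.22%), and 0 were called. Without Rbm3 and Cirbp, 15 of 19 stood higher with a median of 0.09, 6 had an unadjusted p under 0.05 in that direction and 8 separated. When in the day the spleens were taken is not stated, and for clock genes that hour and the group cannot be told apart.

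Dbp (chromosome 7, 45705088 to 45710203, plus strand), a PAR bZIP transcription factor whose transcript swings strongly over the day, was listed at 14.7, 16 and 10.2 FPKM in the HS_AOS libraries, against 6.16, 5.32 and 5.41 FPKM in the HS libraries (log2 change 1.12, SE 0.20, limma adjusted p = 0.391). Every HS_AOS library was clearly above every HS library, and HS_AOS 3 was the lowest of its group. Tef, of the same family, whose promoter E-box is shown above, stood at 16.1, 15.9 and 13.9 FPKM in the HS_AOS libraries, against 10, 9.85 and 9.4 FPKM in the HS libraries (log2 change 0.60, SE 0.14, limma adjusted p = 0.458). Hlf, the remaining family member, had low values at 1.09, 0.62 and 0.81 FPKM in HS_AOS, against 0.48, 0.37 and 0.52 FPKM in HS (log2 change 0.33). All 3 separated without overlap. Nfil3, which represses through the sites that Dbp, Tef and Hlf activate, was the member that stood lower without overlap, at 3, 2.8 and 2.6 FPKM in HS_AOS, against 3.73, 3.42 and 3.64 FPKM in HS (log2 change -0.28).

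In the repressor arm, Nr1d1 (REV-ERB alpha), which represses Arntl, was at 8.56, 8.04 and 6.12 FPKM in the HS_AOS libraries, against 3.94, 3.44 and 3.46 FPKM in the HS libraries (log2 change 0.88, SE 0.18, limma adjusted p = 0.458), and Nr1d2 (REV-ERB beta) at 12.7, 12.6 and 10.6 FPKM in HS_AOS, against 7.17, 7.86 and 8.01 FPKM in HS (log2 change 0.58). Per3 stood at 3.2, 3.77 and 2.66 FPKM in HS_AOS, against 2.16, 1.64 and 2.29 FPKM in HS (log2 change 0.47) and Per2 at 2.95, 3.17 and 2.87 FPKM in HS_AOS, against 2.1, 2.27 and 2.76 FPKM in HS (log2 change 0.25). All 4 were higher in each HS_AOS library than in any HS library. Arntl, which encodes BMAL1 of the activator arm, overlapped at 5.91, 9.23 and 7.12 FPKM in HS_AOS, against 7, 9.7 and 8.97 FPKM in HS (log2 change -0.19), and Rora, which activates Arntl, stood at 1.86, 1.9 and 2.13 FPKM in HS_AOS, against 1.55, 1.59 and 1.36 FPKM in HS (log2 change 0.24). The 11 tested genes of the repressor arm had a median of 0.05, close to the 0.04 of all tested genes. Of these 11, 4 separated higher (background 8.22%) and 1 lower (background 2.74%). The 4 activator genes had a median of 0.04.

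Rbm3 and Cirbp, RNA-binding proteins whose transcripts rise when temperature falls slightly, had similar log2 changes. Rbm3 was listed at 391, 369 and 334 FPKM in the HS_AOS libraries, against 329.5, 210.5 and 226 FPKM in the HS libraries (log2 change 0.54, SE 0.16, limma adjusted p = 0.714). It did not overlap, although HS 1 was close to HS_AOS 3. Cirbp stood at 38.1, 44 and 31.3 FPKM in HS_AOS, against 33.7, 22.2 and 22.2 FPKM in HS (log2 change 0.53), where HS 1 was above HS_AOS 3. In both, HS 2 and HS 3, the libraries with the highest heat shock values, were the lowest of the 6.

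In AOS against control the clock list had a median of 0.06. Nr1d1 was at 5.68, 6.09 and 3.15 FPKM in the AOS libraries, against 1.61, 1.99 and 2.13 FPKM in the control libraries (log2 change 1.00), again without overlap, and its interaction was -0.12 (SE 0.26, limma adjusted p = 0.962). Dbp was at 9.69, 8.78 and 6.19 FPKM in the AOS libraries, against 4.89, 7.12 and 7.15 FPKM in the control libraries, where control 2 and control 3 lay inside the AOS range, and its interaction was 0.81 (SE 0.29, limma adjusted p = 0.705). Neither interaction passed after adjustment. Without adjustment the interaction was positive with p under 0.05 in 4 of 21 members (background 2.27%), namely Dbp (0.81), Tef (0.53), Hlf (0.48) and Per3 (0.50), and negative in 1 (background 3.70%), Bhlhe41 (-0.57).

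**Figure D4:**
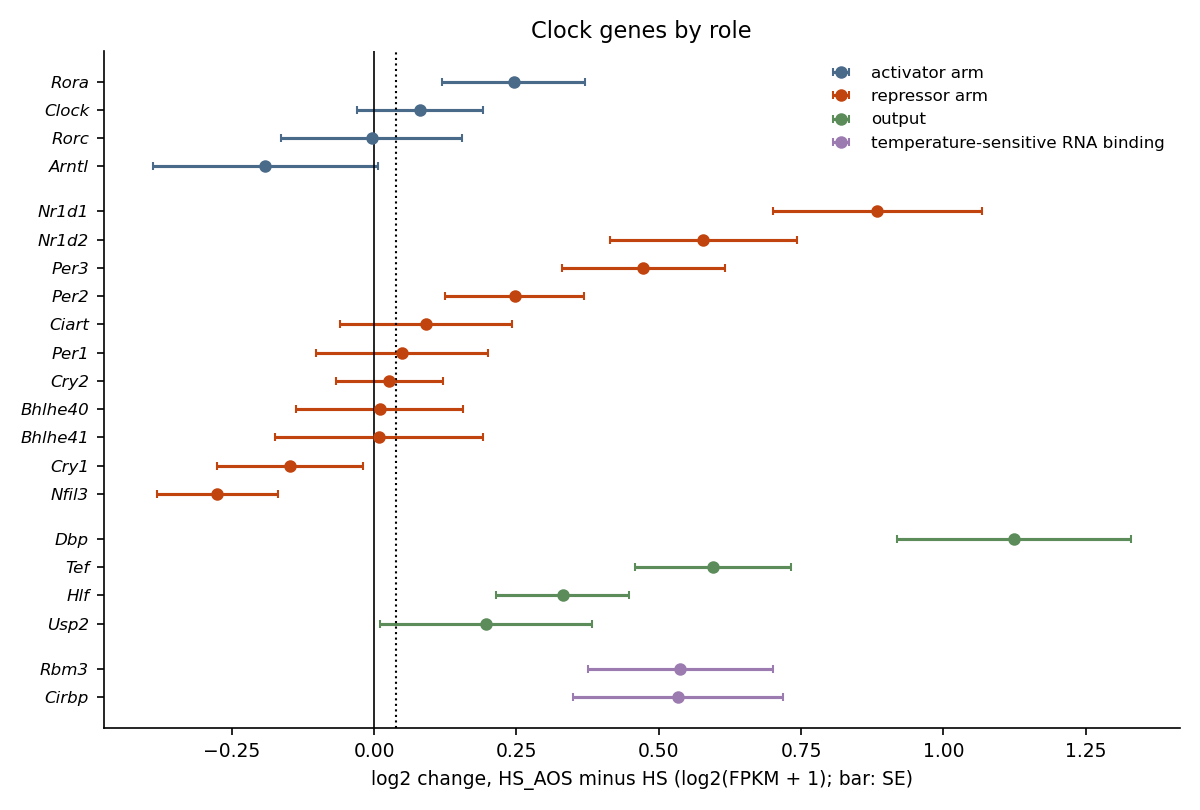
Log2 change, HS_AOS minus HS, of the 21 tested members of the clock list by role, Rbm3 and Cirbp included, on the log2(FPKM + 1) scale, with bars for the standard error, a solid line at 0 and a dotted line at the median of all tested genes. Dbp (1.12) and Nr1d1 (0.88) lie farthest to the right, and Nfil3 (-0.28) farthest to the left.

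Zfp979 and Zfp984 had differences among the largest by size, and Zfp985 had a smaller one. These 3 zinc finger genes lie in 1 stretch of chromosome 4 (147553277 to 147809788, GRCm38, 257 kb). Zfp979 was listed at 0.03, 0.03 and 0.09 FPKM in the HS_AOS libraries, against 9.2, 5.54 and 9.3 FPKM in the HS libraries (log2 change -3.07, SE 0.68, limma adjusted p = 0.458). It was close to 0 in all HS_AOS libraries. Zfp984 stood at 1.4, 1.78 and 1.13 FPKM in the HS_AOS libraries, against 6.22, 4.61 and 8.93 FPKM in the HS libraries (log2 change -1.61, SE 0.34, limma adjusted p = 0.458), and Zfp985 at 0.36, 0.32 and 0.29 FPKM in the HS_AOS libraries, against 1.71, 0.91 and 1.63 FPKM in the HS libraries (log2 change -0.85, SE 0.21, limma adjusted p = 0.562). The groups did not overlap for any of them. Fitted to the 6 libraries alone, limma called Zfp979, with adjusted p = 0.00252, and with adjusted p = 0.00205 with the replicate block. These genes belong to a family of near-identical zinc finger genes among which reads can be split, so each single value is uncertain. Zfp534, which lies in the same stretch, overlapped between the groups, at 3.12, 3.3 and 2.96 FPKM in the HS_AOS libraries, against 4.6, 2.56 and 4.65 FPKM in the HS libraries (log2 change -0.23, SE 0.18, limma adjusted p = 0.997), with HS 2 below the HS_AOS libraries.

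Zfp979 also varied widely inside other groups. It was at 23.0, 9.35 and 16.5 FPKM in HS_AOSFMT, 8.05, 0.610 and 1.93 FPKM in HS_conFMT, and 0.2, 7.53 and 0.66 FPKM in the AOS libraries, against 5.64, 3.74 and 9.17 FPKM in the control libraries. Values under 1 FPKM thus also occurred in HS_conFMT 2, AOS 1 and AOS 3, and AOS 2 was at the level of the control libraries. Zfp984 and Zfp985 followed the same order of libraries in AOS, where Zfp984 was at 2, 5.18 and 2.19 FPKM in the AOS libraries, against 4.16, 3.27 and 6.81 FPKM in the control libraries. Of 20 listed zinc finger genes of this end of chromosome 4, 9 passed the filter, 3 of them, Zfp979, Zfp984 and Zfp985, with an unadjusted p under 0.05 (background 1.32%), and the median log2 change of the 9 was -0.07. Zfp990 of the same list, outside that stretch, was at 41.2, 52.7 and 43.4 FPKM in HS_AOS, against 40.8, 39.3 and 45 FPKM in HS, with overlap.

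**Figure D5:**
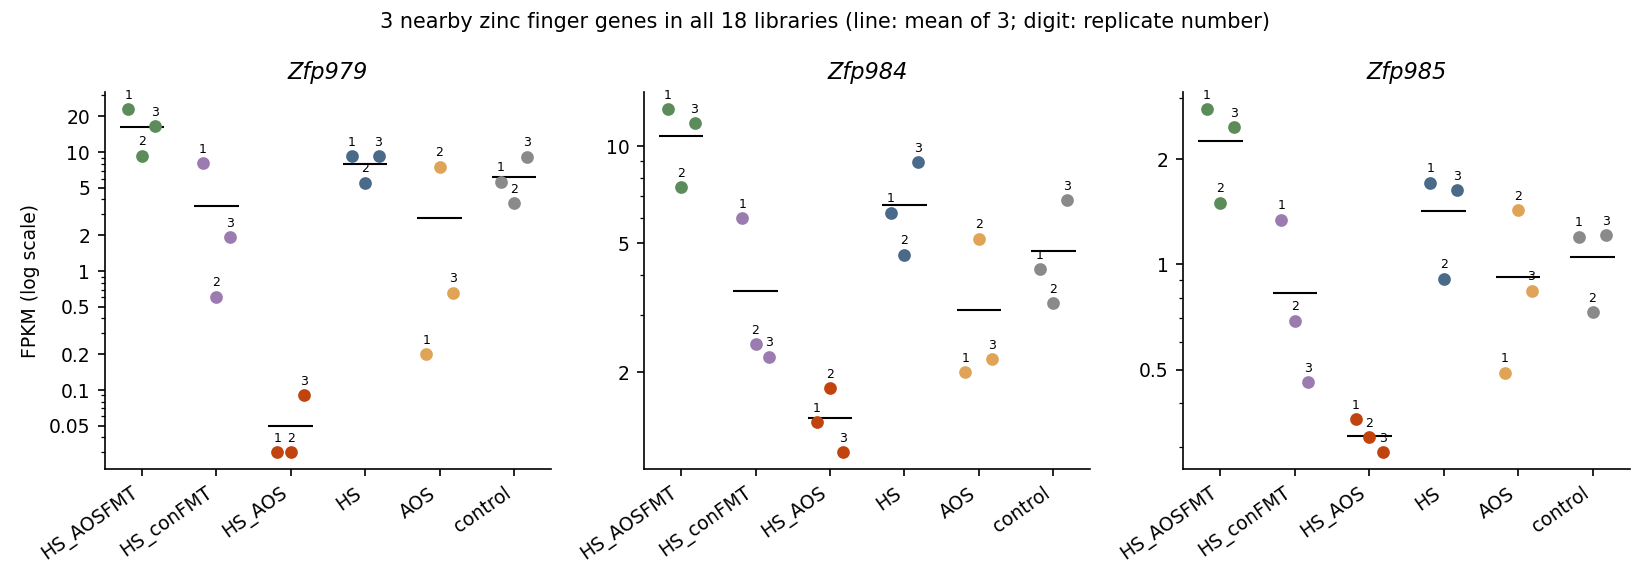
FPKM (log axis) of Zfp979, Zfp984 and Zfp985 in all 18 libraries by group, with replicate numbers and lines for the means. HS_AOS is the lowest group for all 3 genes, with Zfp979 between 0.03 and 0.09 FPKM, and HS_conFMT and AOS each span a wide range.

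Neutrophil genes, those of granules together with those of cytosol and receptors, had the lowest median of the immune lists. The 23 tested genes had a median log2 change of -1.01, 21 stood lower and 9 separated without overlap (background 2.74%), and 0 had an unadjusted p under 0.05. Their part of the summed FPKM was 0.0959%, 0.144% and 0.107% in HS_AOS, against 0.360%, 0.136% and 0.260% in HS. Chil3, a chitinase-like protein of neutrophils and macrophages, was at 19, 29.8 and 18.5 FPKM in the HS_AOS libraries, against 74.9, 40.2 and 71.4 FPKM in the HS libraries (log2 change -1.41, SE 0.71, limma adjusted p = 0.982). Lcn2, which withholds iron from bacteria, stood at 31.1, 43.2 and 29 FPKM in HS_AOS, against 133, 53.8 and 96.5 FPKM in HS (log2 change -1.36), and the iron-binding Ltf at 13.8, 18.9 and 13.7 FPKM in HS_AOS, against 60.6, 21.6 and 44.5 FPKM in HS (log2 change -1.29). HS 2 was the HS library closest to HS_AOS for all 3, and all 3 separated. The median was -0.60 without HS 1 and -1.43 without HS 2. Fitted to the 6 libraries alone, 13 members had an unadjusted p under 0.05 (1.59% of all genes in that fit), and 5 with the replicate block (2.51%). In the fit over the whole series that count was 6 without control 1 (1.63%) and 12 without control 3 (1.73%), libraries that enter it only through the shared estimate of spread. In AOS against control the list stood lower as well, with a median of -1.80 and 23 of 23 members with an unadjusted p under 0.05 (background 3.26%). That count was 2 without control 1 (median -0.87, 3.15% of all genes), 5 without AOS 1 (1.67%) and 13 without control 2 (3.02%). The list took 0.0938% to 0.224% of the summed FPKM in AOS, against 2.10%, 0.639% and 0.143% in control 1, 2 and 3.

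The NK and cytotoxic list of 15 had 13 members higher, where 63.2% of all genes were, and a median of 0.16. Of its members 1 had an unadjusted p under 0.05 in that direction, near the share of all genes (3.88%). It was Klrd1, or CD94, a partner of NKG2 receptors, at 14, 16 and 16.5 FPKM in the HS_AOS libraries, against 11.1, 11.2 and 10.8 FPKM in the HS libraries (log2 change 0.45, SE 0.12, limma adjusted p = 0.654). Cxcr6, a chemokine receptor of tissue-resident T and NK cells from the chemokine list, was at 5.75, 8.03 and 7.47 FPKM in the HS_AOS libraries, against 4.2, 4.56 and 4.97 FPKM in the HS libraries (log2 change 0.53, SE 0.11, limma adjusted p = 0.458). Neither overlapped. B cell identity genes were higher in 14 of 14, with a median of 0.12 and 0 at that threshold, and over all settings that median ran from -0.02 to 0.24. HS_AOS 2 was the highest library for all 14. T cell and macrophage lists had medians of -0.04 each. Ceacam1, an inhibitory adhesion receptor, stood at 11.9, 11.3 and 12 FPKM in the HS_AOS libraries, against 18.6, 18.6 and 22.3 FPKM in the HS libraries (log2 change -0.71, SE 0.20, limma adjusted p = 0.714). Ccl2, the chemokine that draws monocytes, was at 2.52, 2.19 and 2.42 FPKM in HS_AOS, against 3.08, 3.91 and 5.79 FPKM in HS (log2 change -0.61). Both were lower in each HS_AOS library. Saa3, an acute phase transcript, was at 1.83, 1.36 and 0.74 FPKM in HS_AOS, against 21.9, 4.46 and 1.29 FPKM in HS (log2 change -1.54), with overlap and HS 1 far above the rest.

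Of the genes with the smallest p, several belong to none of these lists. Ccdc62 had the smallest of all, at 2.79, 2.79 and 2.49 FPKM in the HS_AOS libraries, against 1.38, 1.62 and 1.28 FPKM in the HS libraries (log2 change 0.61, SE 0.10, limma adjusted p = 0.39). Tctn1, a protein of the ciliary transition zone, was at 4.6, 4.88 and 4.55 FPKM in HS_AOS, against 2.8, 2.59 and 2.91 FPKM in HS (log2 change 0.59), and Stoml1, related to stomatin, at 19.1, 20.3 and 14.8 FPKM in HS_AOS, against 13.1, 9.54 and 9.87 FPKM in HS (log2 change 0.69). Each was higher in every HS_AOS library. Zfp69 stood at 6.4, 4.27 and 4.15 FPKM in HS_AOS, against 2.16, 3.09 and 2.06 FPKM in HS (log2 change 0.78), Ap4b1, of the AP-4 adaptor that sorts cargo at the Golgi, at 19.9, 18.2 and 18 FPKM in HS_AOS, against 15.4, 13.5 and 12.5 FPKM in HS (log2 change 0.42), and Abcb8, a mitochondrial ABC transporter, at 8.31, 7.78 and 7.9 FPKM in HS_AOS, against 6.42, 6.16 and 5.58 FPKM in HS (log2 change 0.35). Cryzl1 and Stk32c were also higher without overlap, with log2 changes of 0.35 and 0.52. On the lower side, the extracellular glutathione peroxidase Gpx3 was at 78.3, 54.4 and 59.6 FPKM in the HS_AOS libraries, against 84.7, 150.4 and 116 FPKM in the HS libraries (log2 change -0.84, SE 0.21, limma adjusted p = 0.562), and Swt1, whose yeast relative is an RNA endonuclease, at 11.2, 11.9 and 13.2 FPKM in HS_AOS, against 14.4, 18 and 19.1 FPKM in HS (log2 change -0.47). HS 2 was the highest for Gpx3, which is the member of the antioxidant list described below with the lowest log2 change. The adjusted p of the genes in this paragraph ran from 0.390 to 0.650.

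By size of change among genes without overlap, Gdpd3, a lysophospholipase D that makes lysophosphatidic acid, was at 0.45, 0.31 and 0.45 FPKM in the HS_AOS libraries, against 24.7, 2.1 and 50.5 FPKM in the HS libraries (log2 change -3.52, SE 1.04, limma adjusted p = 0.714). It was uniformly low in HS_AOS and spread over a wide range in HS. Without diet and STZ it stood the other way, at 11.1, 3.44 and 19.7 FPKM in the AOS libraries, against 0.43, 0.66 and 0.38 FPKM in the control libraries, and its interaction was -6.32 (SE 1.46, limma adjusted p = 0.402). Npy, or neuropeptide Y, was at 12.7, 11.7 and 9.31 FPKM in HS_AOS, against 0.17, 6.61 and 1.18 FPKM in HS (log2 change 2.18), and was listed at 0 in all control libraries. H2-Ea-ps, an MHC class II gene annotated as a polymorphic pseudogene, was at 76.5, 195 and 257 FPKM in HS_AOS, against 384, 412 and 542 FPKM in HS (log2 change -1.49). Lynx1, which binds nicotinic receptors, stood at 6.14, 11.7 and 7.5 FPKM in HS_AOS, against 3.61, 2.26 and 5.29 FPKM in HS (log2 change 1.01). Pira1 and Xlr3b, members of families of near-identical genes whose reads can be split, had log2 changes of 0.87 and 1.21. None passed after adjustment, with limma adjusted p from 0.714 to 0.985 for the genes in this paragraph.

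Lipid and muscle genes gave small differences. Plin2, the coat protein of lipid droplets, was at 38.3, 32.6 and 30.4 FPKM in HS_AOS, against 41.9, 39.1 and 39.3 FPKM in HS (log2 change -0.25), lower without overlap. Fatty acid oxidation genes were higher in 16 of 18, where 63.2% of all genes were, with a median of 0.10 that ran from 0.03 to 0.18 over the fits. An unadjusted p under 0.05 was reached by 1 higher member (background 3.88%) and 1 lower member (background 1.32%). Acadvl, the dehydrogenase for very long chains, stood at 36.7, 35.7 and 32.4 FPKM in HS_AOS, against 34.6, 29.2 and 27.9 FPKM in HS (log2 change 0.19), with overlap. Cnn1 and Tagln, proteins of the contractile apparatus of smooth muscle, had log2 changes of -0.44 and -0.29. Cnn1 stood at 3.64, 2.39 and 2.55 FPKM in HS_AOS, against 4.39, 4.47 and 3.75 FPKM in HS and separated, and Tagln overlapped by a single library. Tlx1, the transcription factor needed for the spleen to form, was at 13.9, 16.9 and 17 FPKM in HS_AOS, against 10.1, 13.4 and 13.7 FPKM in HS (log2 change 0.34), higher without overlap.

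Across the whole spleen transcriptome the AOS difference with diet and STZ and the one without them were weakly related. Over 12969 genes, which are not independent replicates, the log2 changes had a Pearson correlation of 0.14 and a Spearman correlation of 0.10, with no library shared between the comparisons. In AOS against control limma called 1 gene (0.00771%), Kap, and 1471 had an unadjusted p under 0.05 (11.3%). Counted by overlap, 1510 genes (11.6%) were higher in every AOS library than in any control library and 621 (4.79%) were lower. Of the genes with an unadjusted p under 0.05 in both, 53 stood in the same direction and 32 in the opposite one, together 12.6% of the HS_AOS list and 5.78% of the AOS list. In the interaction limma called 1 gene (0.00771%), again Kap, and 774 had an unadjusted p under 0.05 (5.97%), 294 positive (2.27%) and 480 negative (3.70%).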

How the data were processed

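RNA was measured by sequencing in 18 spleen libraries. Per the submitters' processing notes, reads were handled with Bowtie 0.12.2 and the genome build mm10. What counted the reads, whether strand was used, and which gene models and filters applied was not given in the sources used here. Values deposited by the authors were taken as FPKM, which was inferred from the numbers, as the header names no unit. Depth is therefore unknown, and values carry no counting interval or floor. No column of per-sample values was left unused. Groups come from the labels. The file has 19326 entries. Of these, 418 hold only zeros, and 26 symbols had been turned into dates and are not printed.

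The 12969 entries that reached 1 FPKM in 3 or more libraries were analysed with limma 3.58.1 in R 4.3.3 on log2(FPKM + 1), with group as the sole factor, all 18 libraries sharing 1 estimate of spread, and eBayes with the trend and robust options (12 residual degrees of freedom and 3.38 from the prior). Two-sided p-values were adjusted by Benjamini-Hochberg over all tested genes, and a gene is called when its adjusted p is under 0.05. Summaries used Python 3.11.15 and pandas 2.3.3. The fit was tested on simulated data with known changes. The 34 gene lists (621 genes, 608 of them in the file) and the comparison itself were chosen with earlier results of these data known. Lists are described by counts and medians only. Named genes are, per direction, the 12 with the smallest p and the 6 with the largest change (mean of at least 5 FPKM over all libraries) among those whose libraries do not overlap, up to 6 members with the smallest p per list and any member of the heat shock, mitochondrial, ER, clock and zinc finger lists, and the 10 with the smallest interaction p. Predicted genes and antigen receptor segments were left out of the parts of that rule that rank all genes. Plod1, Cd3e and Spic were named outside it, after their values were seen.

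The labels number the libraries 1 to 3 in each group and do not say what the numbers share. Deviations from the group means of same-numbered HS_AOS and HS libraries correlated across genes at 0.487, 0.287 and 0.372, and those of other pairs at -0.361 to 0.0711, so the numbers were treated as pairing the libraries in an alternative with a replicate block. The 15 alternative fits changed the pseudocount (0.1), the filter (none, or 5 FPKM), the block, the libraries fitted, the scaling and the eBayes options, or left out each HS_AOS and HS library in turn. A further 7, chosen after seeing the data, set HS_AOS 1 and HS 1 aside together or left out each AOS and control library in turn. FMT libraries were not left out. Gene positions are from GENCODE M21 and promoters from RefSeq, both on GRCm38, and the starts of a gene can differ between them.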

Additional observations from a re-analysis of the deposited data

Results flagged for a closer look

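Kap, which encodes a kidney protein regulated by androgens (chromosome 6, 133849851 to 133853762, minus strand), had an AOS difference that depended on diet and STZ, by the test of that difference itself. It was at 0.15, 0 and 0.15 FPKM in the HS_AOS libraries, against 0.31, 0.31 and 1.67 FPKM in the HS libraries (log2 change -0.60), and at 0, 0 and 0 FPKM in the AOS libraries, against 13.3, 20.1 and 21 FPKM in the control libraries (log2 change -4.23). The interaction was 3.63 (SE 0.40, limma adjusted p = 0.00195), the only one called of 12969. It was listed at 0 in every AOS library and stood at 1.67 FPKM or below in every library with diet and STZ of this comparison, so the interaction rests on the 3 control libraries. With 1 control library left out at a time it was 3.52 to 3.83 (adjusted p 0.00209 to 0.0124), and with a pseudocount of 0.1 it was not called (adjusted p = 0.241).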

How the results depend on the processing

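Over 23 fits, the median log2 change ran from -0.58 to -0.27 for heat shock genes, from -0.23 to -0.14 for ER folding genes, from 0.10 to 0.33 for clock genes and from -1.43 to -0.60 for neutrophil genes. The reported fit called 0 genes between HS_AOS and HS, and the interaction of Kap, the only one called, kept its sign. Of the values of single genes and lists under the alternatives, 2852 kept to their side of the threshold or moved by less than the spread between libraries. A further 17 moved by more, 10 became called and 1 lost its call. Most of the 2852 were uncalled gene values that stayed uncalled, so that count is not a measure of stability. Of 34 list medians 21 lay on both sides of 0 over the fits, among them acinar genes (-2.29 to 0.47), interferon genes (-0.11 to 0.65), germinal centre genes (-0.34 to 0.31) and erythroid genes (-0.29 to 0.14). Of the single genes, 1 changed sign: the marker gene Cd3e (-0.09 as reported) ran from -0.17 (without HS_AOS 1) to 0.01 when a library was left out. The number of genes called between HS_AOS and HS was 0 as reported, 1 when limma was fitted to these 6 libraries alone and 1 with the replicate block added (Zfp979 in both), and 0 to 3 when a library was left out. The 3 calls came without HS 1: Hspe1 (log2 change -0.99, adjusted p = 0.0166), Mrps6 (-1.01, 0.0344) and Plod1, a lysyl hydroxylase (-0.89, 0.0171). The number with an unadjusted p under 0.05 was 674 as reported, 676 in the 6 libraries alone, 1105 with the paired replicate block there, 753 with the block over all 18 libraries, and 431 to 879 when a library was left out, the lowest without HS_AOS 2. In the interaction, 0 genes were called with a pseudocount of 0.1 and 2 with median-of-ratios scaling (Kap and Hsp90b1, -1.31), against 1 as reported. Leaving out a library gave 1 to 8 calls there, with 4 without AOS 2 (Kap, Hsp90b1, Creld2 and Lman1) and 8 without control 2, and 513 (without AOS 3) to 1028 genes (without control 3) with an unadjusted p under 0.05, against 774. The causes of these moves were not tested, and leaving out libraries also lowers the number of samples. With 3 libraries a group, low values carry an unknown counting error.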

Other observations

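Lists not described above gave the following medians of the log2 change, HS_AOS minus HS, beside 0.04 for all tested genes, with 0 members called in each. Of all tested genes, 63.2% stood higher. Interferon response genes had a median of 0.23 and 13 of 17 members higher. Ifit3, an interferon-induced RNA-binding protein, was at 21.9, 9.31 and 50.7 FPKM in HS_AOS, against 7.6, 7.08 and 26.3 FPKM in HS (log2 change 0.89), with HS_AOS 3 and HS 3 the highest of their groups and the groups overlapping, and the list median ran from -0.11 to 0.65 over the fits. Megakaryocyte and platelet genes stood lower in 13 of 13, with a median of -0.27, and 1 member separated without overlap (background 2.74%). HS 1 was the highest of the 6 libraries for all 13, and the list median ran from -0.48 to -0.02 over the fits. Erythroid genes had a median of -0.07, germinal centre genes of -0.11, chemokine axis genes of -0.02, dendritic cell genes of 0.01 and MHC class II genes of 0.11. Inflammatory genes had a median of -0.05 and immediate early genes of -0.06. Glucocorticoid responsive genes stood at 0.09, with 10 of 13 higher.

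Growth and metabolism lists lay near 0. Cell division genes had a median of -0.02, ribosome biogenesis genes of -0.03, p53 targets of -0.00, cholesterol genes of -0.01 and antioxidant genes of -0.03. The joint list of matrix and smooth muscle genes stood at -0.15. Its 12 collagen and matrix genes had a median of -0.05 and its 7 tested smooth muscle genes of -0.26. The 6 genes of spleen stroma identity stood at 0.03.

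Transcripts typical of other tissues varied between libraries. Acinar genes stood lower in 27 of 27, with a median of -0.84 that ran from -2.29 to 0.47 over the fits and was 0.13 without HS 1. The elastase gene Cela1 was at 306, 51.9 and 32.3 FPKM in HS_AOS, against 333, 56.9 and 139 FPKM in HS. Liver genes had a median of 0.71 (7 tested), adipocyte genes of 0.30 (12 tested) and skeletal muscle genes of 0.17 (3 tested). The groups overlapped for Cela1, and the part of these transcripts in other differences was not tested, apart from the fits with HS_AOS 1 and HS 1 set aside.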
